A study of Mus musculus with 2 samples.

Results

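The genes described here encode 3 kinds of adhesion protein of mesenchymal cells. They are the cadherin genes Cdh2, Cdh3, Cdh11 and Cdh13, the catenin genes Ctnna1 and Ctnnb1, and the immunoglobulin superfamily adhesion genes Vcam1, Icam1, Ncam1 and Alcam. A probe set, the group of short probes that reads 1 transcript region on an Affymetrix array, was taken where the platform annotation gave it exactly 1 of these 10 names. All 10 genes were on the array, with 33 of its 45101 probe sets; with every other gene of a single name the array held 18193 genes.

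There were 2 samples of mouse embryonic fibroblasts (MEFs), connective tissue cells grown from embryos in serum-containing medium. The first carried both intact copies of Fut8 (Fut8+/+) and the second was homozygous for the disrupted gene (Fut8-/-). Fut8 encodes the enzyme that attaches core fucose to N-glycans, the sugar chains carried by most of the surface proteins encoded by these genes. There was 1 array per genotype, total RNA was labelled with biotin, and the labels number both arrays as replicate 1. The sample titles, by contrast, both end in the number 3. The design text gives 3 cultures per genotype, and no source used here says whether an array holds 1 dish or a pool. Below, a culture means the cells behind 1 array, be they 1 dish or a pool. With 1 array per genotype there is no replicate check and no test, so a difference below is one between 2 arrays. In RNA from whole cultures, fewer cells of a type and less RNA per cell cannot be told apart.

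Classical cadherins are calcium-dependent proteins that bind the same cadherin on a neighbouring cell, and their cytoplasmic tails hold beta-catenin, which binds alpha-catenin and through it the actin cytoskeleton. Beta-catenin that is not held at the membrane is degraded, or enters the nucleus on Wnt stimulation and acts with TCF and LEF factors. Of the immunoglobulin members, VCAM-1 and ICAM-1 are ligands for integrins of leukocytes and are induced through NF-kappaB. NCAM binds itself without calcium and carries polysialic acid, and ALCAM binds itself and the lymphocyte protein CD6. Fibroblasts typically make N-cadherin (Cdh2) and cadherin-11 (Cdh11), whereas E-cadherin (Cdh1) and P-cadherin (Cdh3) are typical of epithelia.

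Signals are printed as deposited. Ratios were centred, which multiplied Fut8-/- signals by 1.16, and scaled signals under a floor of 12.3 were raised to it, so that ratios reaching the floor on 1 side are bounds only. A gene was called measured where the brighter array reached a scaled signal of 39.1, the 60th percentile, and its brightest probe set, by the log2 signal averaged over both arrays, stood for it. Among probe sets of the same gene the log2 ratio varied with an SD of 0.40 (1.32-fold, 5389 genes), which is a technical spread within this pair of arrays and no error between cultures.

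Of the 10 genes, 8 were measured. On the Fut8-/- array Vcam1 and Ncam1 were at least 2-fold lower, Cdh3 and Cdh13 were at least 2-fold higher, and Cdh2, Ctnna1, Ctnnb1 and Alcam lay between. Neither array reached the measured limit for Cdh11 or Icam1. Over all 10164 measured genes, 6.08% were higher by 2-fold or more and 8.46% were lower by as much; without centring these shares were 4.08% and 11.8%, while the same 4 adhesion genes passed 2-fold in the same directions. The median log2 ratio of the 8 genes was -0.06, and that of all measured genes was 0.00. Both lower genes were bright, with the Fut8+/+ signal above the 90th percentile, and both higher genes were dim, with neither array above the 75th percentile.

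**Figure D1:**
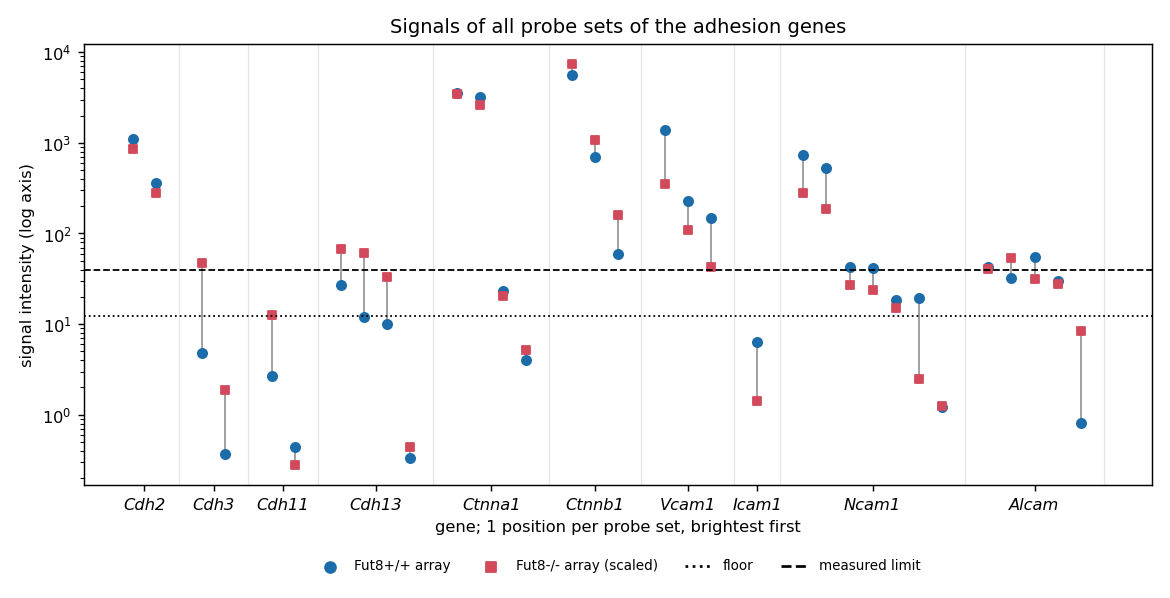
Signal intensity (log axis) of each of the 33 probe sets of the 10 genes, with the Fut8+/+ array as circles and the Fut8-/- array, after scaling by 1.16, as squares; lines join the arrays, and horizontal lines mark the floor (12.3) and the measured limit (39.1). The squares of Vcam1 and of the brightest Ncam1 probe sets lie below their circles, those of Cdh13 lie above, and Icam1 lies under the floor on both arrays.

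N-cadherin (Cdh2) was the brightly measured cadherin of both cultures. At its brightest probe set the Fut8+/+ culture gave a signal of 1103 and the Fut8-/- culture one of 730, a centred log2 ratio of -0.38. The other probe set gave 361 and 238, and the same log2 ratio of -0.38. The 2 probe sets, which share 1 source sequence in the annotation, therefore differed far less than the spread among probe sets of other genes, and the ratio itself was inside that spread. Cdh2 lies on chromosome 18 of assembly GRCm38.p6, whose 256 measured genes had a median log2 ratio of -0.19.

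P-cadherin (Cdh3) lay above the floor on the Fut8-/- array only, and was dim there. Its brighter probe set (1426673_at) gave a signal of 4.76 on the Fut8+/+ array, under the floor, and 40.9 on the Fut8-/- array, just over the measured limit once scaled. This is a difference of at least 3.85-fold (log2 ratio at least 1.95). The other probe set of the gene gave 0.372 on the Fut8+/+ array, did not reach the floor on either, and adds no ratio, so that the difference rests on 1 probe set. Of the 2755 measured genes whose brighter array lay between the 60th and 75th percentiles, 10.4% were at least 2-fold higher, and 3.77% had a log2 ratio as high as that of Cdh3. Cdh3 counted as measured through the Fut8-/- array alone, so that this share is a description and no support for the difference. With the floor at the 60th percentile the bound was 0.28, and the median over both probe sets was 0.97. Cdh3 lies on chromosome 8, where its neighbour is Cdh1. E-cadherin (Cdh1) gave 6.70 and 1.14, under the floor in both cultures.

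Other epithelial markers were given beside Cdh3 for comparison. Of 14 epithelial markers on the array 4 were measured, of which the keratin gene Krt19 (14.6-fold or more) and the desmosome gene Dsp (6.70-fold or more) were higher on the Fut8-/- array and Epcam (2.43-fold) and Grhl2 (2.05-fold) were lower. The median log2 ratio was 0.56 on chromosome 13, which holds Dsp, and 0.13 on chromosome 11, which holds Krt19. The summed signal of the 14 was 173 on the Fut8+/+ array and 343 on the other. The 7 at the floor on both arrays included Cdh1, the claudin genes Cldn3, Cldn4 and Cldn7, occludin (Ocln) and Esrp1. The part of other cells in the Cdh3 signal was not tested.

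Cadherin-13 (Cdh13, also called T-cadherin or H-cadherin), which is tethered to the membrane by a glycosylphosphatidylinositol anchor and has no tail for catenins, was also higher on the Fut8-/- array. Its brightest probe set (1434115_at) gave 26.7 and 58.3, a 2.54-fold difference (log2 ratio 1.34) with both arrays above the floor. A second probe set gave 11.9 and 52.3, at least 4.93-fold, and the third gave 9.96 and 28.2, at least 2.66-fold but below the measured limit. The fourth was under the floor on both arrays. Of the 4 probe sets, the 3 that reached the floor all differed by more than 2-fold in the same direction, more than the spread among probe sets. The Fut8+/+ signal was below the measured limit, so that Cdh13 counted as measured through the Fut8-/- array alone. Among measured genes of the same brightness, 7.01% had a log2 ratio as high. Because the brighter array decides which genes are counted, this share is a description and no support for the difference. With the floor at the 60th percentile the log2 ratio was 0.79. The nearest protein-coding genes on either side, Mphosph6 and Hsbp1, had log2 ratios of -0.02 and 0.10, and chromosome 8 had a median of -0.03 over 576 measured genes.

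Cadherin-11 (Cdh11), the mesenchymal cadherin also known as OB-cadherin, was not measured in either culture. Its 2 probe sets gave signals of 2.66 and 0.436 in the Fut8+/+ culture, and the dimmer gave 0.238 in the Fut8-/- culture. The brighter reached a scaled signal of 12.8 on the Fut8-/- array, barely above the floor, and gives no ratio of use. Whether these probe sets read the transcript poorly or the transcript was scarce was not tested.

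Across 23 genes named Cdh, 21 had a probe set of their own name and 3 were measured, Cdh2, Cdh3 and Cdh13. Besides Cdh11, 17 others were on the array; none of these reached the measured limit on either array, and 6 of them, Cdh1 included, were at the floor on both. The endothelial cadherin gene Cdh5 gave 9.49 and 11.8, at or near the floor, and the muscle cadherin gene Cdh15 (25.4 and 12.9) came nearest to the limit together with Cdh26 (25.3 and 8.40).

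**Figure D2:**
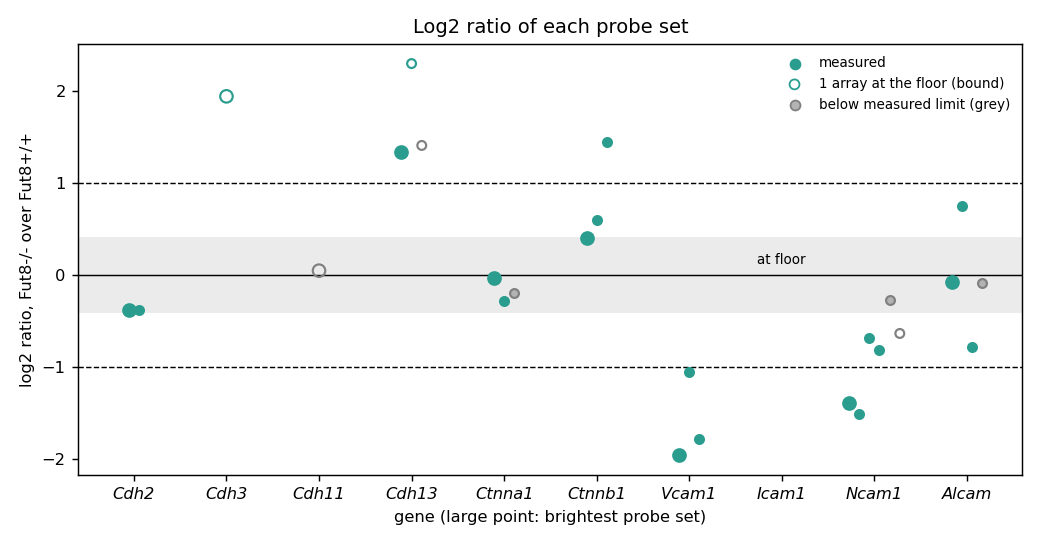
Centred log2 ratio of Fut8-/- over Fut8+/+ for each probe set that lay above the floor on at least 1 array; large points are the brightest probe set of a gene, open points are bounds with 1 array at the floor, grey points are below the measured limit, the grey band is the SD among probe sets (0.40) and dashed lines mark 2-fold. All 3 points of Vcam1 lie below -1, all 3 of Cdh13 above 1, and those of Alcam lie on both sides of 0.

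The catenin genes were bright on both arrays and differed little. Alpha-catenin (Ctnna1), which links the cadherin complex to actin, had signals of 3580 in Fut8+/+ and 2999 in Fut8-/- at its brightest probe set, a centred log2 ratio of -0.04. A second bright probe set gave 3178 and 2238 (-0.29), and the third, below the measured limit, gave 23.3 and 17.5 (-0.19). The fourth was at the floor on both arrays. All 3 ratios were smaller than the spread among probe sets, and the sign at the brightest turned positive (0.13) with centring by chromosome. Like Cdh2, Ctnna1 lies on chromosome 18.

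Beta-catenin (Ctnnb1), the partner of the cadherin tail and the transcriptional effector of Wnt signals, was slightly higher on the Fut8-/- array. Its brightest probe set gave 5599 and 6362, a log2 ratio of 0.40 (1.32-fold), about the SD among probe sets. The second gave 702 and 916 (0.60), and the dimmest 58.9 and 138, which is 2.73-fold (1.45). All 3 probe sets had the same sign, but their ratios ran from 0.40 to 1.45, and the largest came from the dimmest. Above the 90th percentile, where the brightest probe set lies, 23.5% of 3221 measured genes had a log2 ratio as high. Rpl14, the neighbour of Ctnnb1 on chromosome 9, had a log2 ratio of 0.55.

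Genes of the plaque proteins that join cadherins to actin were set beside the catenin genes. Of 22 catenin and adherens junction genes 19 were measured, of which 18 lay within 2-fold, 1 was higher by 2-fold and 0 lower by 2-fold, and the median log2 ratio was -0.05. Over all measured genes 14.5% passed 2-fold either way, and above the 90th percentile 8.94% did. The count within 2-fold is therefore near the common share. The 1 higher gene was that of p120-catenin (Ctnnd1), which stabilises cadherins at the surface. It had signals of 142 and 245, which just reach 2-fold after centring and fall short of it without. The higher count of the list was also 0 with each chromosome centred and with the median over probe sets. Next in size were Pkp4, a relative of p120-catenin (log2 ratio 0.76), the actin regulator gene Vasp (-0.72) and Lima1 (-0.62), which encodes an actin-binding partner of alpha-catenin. Plakoglobin (Jup), which can take the place of beta-catenin in the complex, had signals of 114 and 84.2 (-0.22). Vinculin (Vcl) had a log2 ratio of 0.00 and afadin (Afdn), which ties nectins to actin, of 0.11.

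VCAM-1 (Vcam1) was the adhesion gene with the largest lower signal among the 10. Its brightest probe set (1448162_at) gave 1369 in the Fut8+/+ culture and 302 in the Fut8-/- culture, 3.90-fold lower (log2 ratio -1.96). The second probe set gave 227 and 93.5 (2.08-fold lower) and the third 147 and 36.6 (3.44-fold lower). All 3 probe sets lay above the floor on both arrays and were more than 2-fold lower, from -1.06 to -1.96 on the log2 scale. Of the 3221 measured genes above the 90th percentile, 4.56% were at least 2-fold lower and 1.37% had a log2 ratio as low as that of Vcam1. The gene lies on chromosome 3, whose 519 measured genes had a median of 0.24, of which 68 passed 2-fold upward and 33 downward, and its neighbour Extl2 had a log2 ratio of -0.07. Over the 9 alternative settings the log2 ratio of Vcam1 ran from -2.18 to -1.78.

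NCAM (Ncam1) was lower at each of its 6 probe sets that reached the floor. The 2 brightest (1426865_a_at and 1426864_a_at), which share 1 source sequence in the annotation, gave 728 and 238 (2.63-fold lower, log2 ratio -1.39) and 530 and 160 (2.85-fold lower, -1.51). The next pair were much dimmer, with 43.1 and 23.0 (-0.69) and 41.7 and 20.3 (-0.82), and the fifth gave 18.3 and 13.0 (-0.28). The sixth gave 19.2 and 2.15, the latter under the floor. The seventh was under the floor on both arrays, at 1.22 and 1.08. The direction was shared by all 6, while a difference of 2-fold was found at the 2 brightest alone. The median over all 7 probe sets, in which the one under the floor counts as 0, was -0.69. Among measured genes above the 90th percentile 2.70% had a log2 ratio as low as the brightest probe set. Ncam1 lies on chromosome 9, whose 577 measured genes had a median log2 ratio of 0.04. NCAM exists in forms that differ in their membrane anchor, and the files do not say which form each probe set reads.

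Ncam1 is also a marker of neural and muscle cells, and their other markers were set beside it. Of 10 neural and neural crest markers on the array 4 were measured, of which Sox2 (at least 9.60-fold), nestin (Nes, 4.77-fold) and Tubb3 (3.86-fold) were lower on the Fut8-/- array and Map2 had a log2 ratio of 0.68. The summed signal of all 10 was 859 in the Fut8+/+ culture and 219 in the Fut8-/- culture. Sox10 and Foxd3 were at the floor on both arrays. Of 12 skeletal muscle markers 3 were measured, with Ckm 2.27-fold higher, desmin (Des) at least 4.53-fold lower and Acta1 between (0.54). The summed signals of all 12 were 230.5 and 174, and Myog, Myf5 and Pax7 were at the floor on both arrays. The part of such cells in the Ncam1 signal was not tested.

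ALCAM (Alcam, CD166), a marker of mesenchymal progenitors, was dim and did not differ in a common direction. The probe set with the highest mean over both arrays gave 43.2 and 35.2, a log2 ratio of -0.08, but was the brightest on neither array alone. The others above the floor gave 32.2 and 46.4 (0.75), 54.7 and 27.3 (-0.78), and 29.8 and 24.1 (-0.09). Of these 4 probe sets 3 had a ratio below 0 and 1 above, and they spanned a range from -0.78 to 0.75. The fifth was at the floor on both arrays. The 326 measured genes of chromosome 16, which holds Alcam, had a median of 0.21.

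ICAM-1 (Icam1), the integrin ligand that many cells make on stimulation by tumour necrosis factor or interferon, was not detected above the floor in either culture. Its single probe set gave 6.28 in the Fut8+/+ culture and 1.22 in the Fut8-/- culture, and gives no ratio. The neighbouring Icam4 was not measured either (17.2 and 10.6), whereas Mrpl4 on the other side had a log2 ratio of 0.76. The promoter of Icam1 is shown because it carries a textbook NF-kappaB element. RefSeq windows of 300 bases around the gene start (GRCm38.p6) were at hand for 3 of the 10 genes, Icam1, Ctnnb1 and Alcam, and were searched on both strands for GGAAATTCC. The Icam1 window held it 144 bases before the gene start, in the stretch chr9:21015762-21015820 on the plus strand, where capitals mark the match.
Icam1: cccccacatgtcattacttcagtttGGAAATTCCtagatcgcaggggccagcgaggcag
These 9 letters were found in 0.317% of all 32851 promoter windows, and in none of the windows of Ctnnb1 and Alcam. The match is a description of the sequence and says nothing of binding in these cells.

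**Figure D3:**
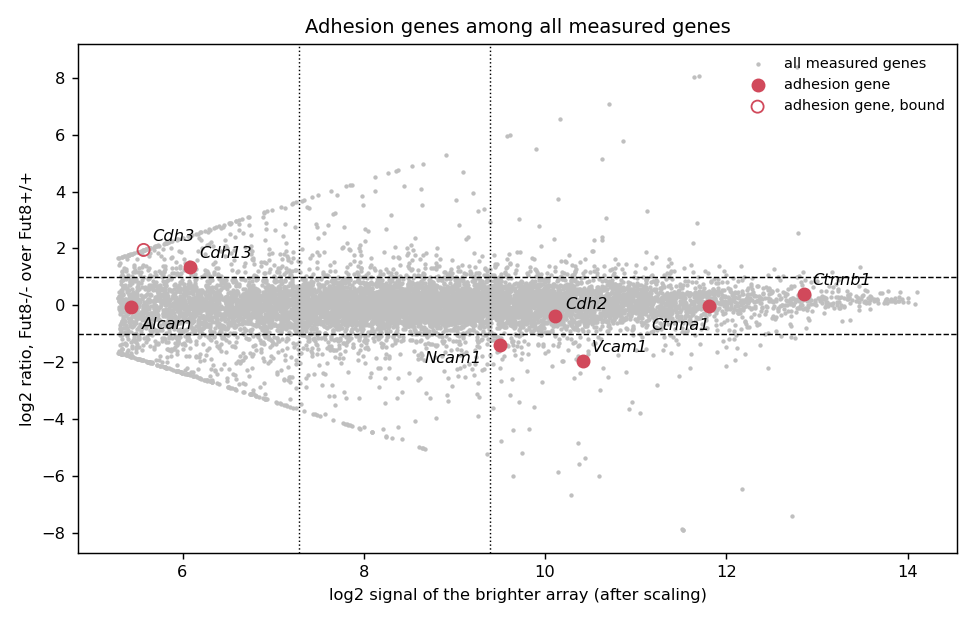
Centred log2 ratio of Fut8-/- over Fut8+/+ against the log2 signal of the brighter array for all 10164 measured genes (grey) and the 8 measured adhesion genes (red; open where 1 array was at the floor), with dotted lines at the 75th and 90th percentiles and dashed lines at 2-fold. Vcam1 (-1.96) and Ncam1 (-1.39) lie low among bright genes, where fewer genes pass 2-fold, and Cdh3 and Cdh13 lie high among dim ones, where the spread is wider.

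The immunoglobulin adhesion molecules as a wider list also differed in both directions. Of 37 on the array 18 were measured, of which 5 (27.8%) passed 2-fold downward and 3 (16.7%) upward on the Fut8-/- array, and the median log2 ratio was -0.44. The 15 that are not among the 10 genes gave 3 and 3, with a median of -0.42. Lower were Mcam, the melanoma adhesion molecule found on pericytes and vessels (at least 4.11-fold, 50.8 and 2.98), the synaptic adhesion family gene Cadm4 (4.11-fold, 215 and 44.9) and Nectin2 (3.64-fold, 310 and 73.1), which encodes a partner of afadin. Higher were L1cam, a neural relative of NCAM (3.73-fold, 16.7 and 53.5), Emb (at least 3.48-fold, 7.31 and 36.9) and Cdon, a coreceptor for hedgehog proteins (2.33-fold, 350 and 702). Nectin2, Emb and Cdon were named after their values were seen. Cadm4 and Nectin2 lie on chromosome 7, whose measured genes had a median log2 ratio of -0.32. Emb lies on chromosome 13, with a median of 0.56 and 73 measured genes at least 2-fold higher against 9 lower. Mcam and Cdon lie on chromosome 9 (median 0.04) and L1cam on the X chromosome (0.02). Over the alternative settings the lower genes of the list numbered from 4 to 7 and the higher ones from 1 to 4.

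Binding partners of the immunoglobulin members were measured in part. Of 14 partners 6 were measured, 2 of them lower by 2-fold or more and 0 higher, and the median log2 ratio was -0.47. The 2 were Itgb7 (2.58-fold, 45.2 and 15.0), whose protein forms a VCAM-1 receptor of lymphocytes, and Fgfr1 (2.50-fold, 470.5 and 162), the receptor that NCAM and N-cadherin engage. Ezrin (Ezr), which anchors ICAM and VCAM tails to actin, had a log2 ratio of 0.67. The integrin subunits of the main VCAM-1 receptor gave 1299 and 723 for Itgb1 (-0.63) and 19.4 and 18.2, below the measured limit, for Itga4. The enzymes that add polysialic acid to NCAM were not measured, with signals of 12.7 and 3.53 for St8sia2 and 7.46 and 8.45 for St8sia4. With the floor at the 60th percentile or the filter set at the 75th, 1 partner was lower in place of 2, since Itgb7 is dim, and the list median ran from -0.69 to 0 over the settings.

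Genes that respond to NF-kappaB or carry its signal included some at least 2-fold lower and none 2-fold higher. The array had 27 of them. Of the 22 measured 5 (22.7%) passed 2-fold downward and 0 upward, and the median log2 ratio was -0.34. Over all measured genes 8.46% passed 2-fold downward and 6.08% upward, so that 22 genes of any kind would hold few higher ones. The 5 lower genes included Bcl3 (at least 4.58-fold), the feedback inhibitor gene Tnfaip3 (2.81-fold, 194 and 59.2) and Tnfaip2 (2.47-fold, 829 and 289). The rest were the subunit gene Relb (2.17-fold, 189 and 75.1) and Birc3 (2.05-fold), the last named after its value was seen. The subunit gene Rela had a log2 ratio of -0.19, the inhibitor gene Nfkbia -0.21 and the chemokine gene Ccl2 -0.37. The receptor gene Tnfrsf1a had 0.18, and Tnf itself was at the floor on both arrays. The highest log2 ratio of the list was 0.43, that of Sod2. The lower count ran from 3 to 7 over the alternative settings and the higher count stayed at 0 in all 9. The lowest count, 3, came with each chromosome centred. Bcl3 and Relb lie on chromosome 7, with a median log2 ratio of -0.32 and 11 measured genes at least 2-fold higher against 93 lower. Tnfaip2 lies on chromosome 12 (median -0.38, 8 higher and 51 lower). Tnfaip3 and Birc3 lie on chromosomes 10 (median 0.11) and 9 (0.04).

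Protocadherins and large cadherins held wider differences in both directions. Of 22 on the array 7 were measured, 2 passing 2-fold upward and 2 downward (28.6% each), and the median log2 ratio was -0.92. The giant cadherin gene Fat4, which works with Dachsous in planar polarity, was at least 19.0-fold higher on the Fut8-/- array (9.14 and 201). Pcdh18 was 2.53-fold higher (436 and 947). The X-linked Pcdh19 was 5.81-fold lower (1661 and 246) and Pcdh10 at least 5.36-fold lower (66.2 and 7.61). Fat1, the bright relative of Fat4, had a log2 ratio of -0.01. Over the alternative settings the lower genes of the list numbered from 1 to 4, with 4 lower without centring, and the median ran from -1.14 to 0, while the higher genes stayed at 2.

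Genes of enzymes that cut or remove cadherins were also listed. The array had 11 of them, and of the 10 measured 1 was lower by 2-fold and 0 higher, with -0.15 as the median log2 ratio. Over all measured genes 8.46% passed 2-fold downward and 6.08% upward, so that these counts are near the common share. The 1 lower gene was the gamma-secretase subunit gene Ncstn, which just reached 2-fold (66.6 and 28.6). The sheddase genes Adam9 and Adam17 had log2 ratios of -0.78 and -0.57. The ubiquitin ligase gene Cbll1 (Hakai), known for E-cadherin removal, had -0.65. The lower count of this list ran from 0 to 2 over the settings. Transcription factors known for switching cells between E- and N-cadherin were mixed. Of the 9 measured, 2 (22.2%) were lower by 2-fold or more, Prrx1 (at least 17.9-fold, 221 and 7.26) and Snai2 (2.89-fold, 2219 and 659). Zeb2, the only higher gene (11.1%), was 2.22-fold higher (59.4 and 113). Beside the same shares of all measured genes, counts over 9 genes say little. The higher count was 0 without centring, with the filter set at the 75th percentile and with the median over probe sets, and the lower count stayed at 2 in all 9 settings. Twist1 had a log2 ratio of -0.70, and the list median was -0.58.

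The measured genes on the nuclear side of beta-catenin showed no difference of 2-fold in the main setting. All 16 measured genes of beta-catenin turnover and its nuclear partners lay within 2-fold, with a median log2 ratio of 0.16 that turned to -0.06 without centring. The largest were those of the partner genes Lef1 (-0.80, with signals of 140 and 69.5), Tcf7l2 (0.61), Bcl9 (0.53) and Tcf7l1 (0.53). Of 16 beta-catenin target genes 4 were measured and 0 passed 2-fold, namely Ccnd1 (-0.85, 1919 and 915), Ccn4 (-0.57), Myc (0.34) and Znrf3 (0.13). Over all measured genes 14.5% passed 2-fold either way, so that 0 of 4 targets says little, and most targets were not measured. Without centring 1 gene of each of these lists was at least 2-fold lower. With the median over probe sets 1 gene of the turnover and partner list was at least 2-fold higher. Targets often read as signs of Wnt activity, Axin2 (22.5 and 11.4) and Nkd1 (25.5 and 18.8), were below the measured limit.

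**Figure D4:**
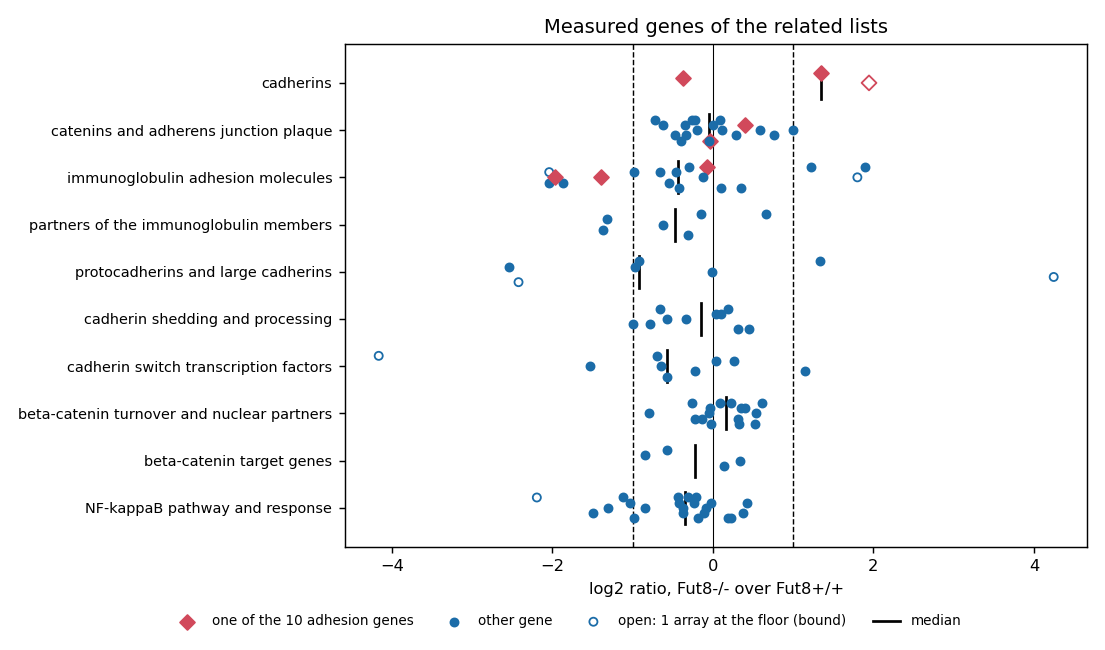
Centred log2 ratio of Fut8-/- over Fut8+/+ for the measured genes of 10 related lists, with diamonds for the 8 measured adhesion genes, open symbols for bounds, a black bar at each list's median and dashed lines at 2-fold. Catenin and beta-catenin lists lie mostly between the dashed lines, as do most measured genes (14.5% of all passed 2-fold either way). Immunoglobulin adhesion molecules and protocadherins reach beyond the lines on both sides.

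The labels and the cell type were checked on the same arrays. Fut8 was 14.1-fold lower on the Fut8-/- array (190.9 and 11.7), and the files do not say whether its probe set reads the disrupted part. The Fut8-/- array carried signal for Y-linked genes (Eif2s3y 7.06 and 2845) and little for Xist (656 and 15.2), so the cultures differ in sex-linked transcripts, which cannot be told apart from genotype here. Of 16 fibroblast markers 12 were measured, 6 at least 2-fold lower and 1 higher (Pdgfrb), with bright vimentin (Vim, 11471 and 11111) and Col1a2 (11280 and 9433) on both arrays and a lower Fbln2 (5.06-fold) and Fn1 (3.25-fold). Decorin (Dcn), Thy1, Fap and Lum did not reach the measured limit. Of 10 endothelial and 10 leukocyte markers, 2 each were measured, with 0 passing 2-fold, and Pecam1 and Ptprc were at the floor; the summed signals were 369 and 233 for the endothelial and 287 and 179 for the leukocyte markers. Of 10 smooth muscle and pericyte markers 7 were measured. Of these 5 were at least 2-fold lower, led by Myl9 (at least 7.77-fold), Tagln (6.70-fold) and Des, and Mylk was 4.04-fold higher. The summed signals of all 10 were 787 and 393. The part of these differences in the Vcam1, Mcam and Ncam1 signals was not tested.

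Under 9 alternative settings Vcam1 stayed at least 2-fold lower in all 9 and Ncam1 in 8. Cdh13 stayed at least 2-fold higher in 7 of the 8 settings in which it was measured, and Cdh3 in 6 of 8. Cdh2 was below 0 in 9 of 9 without reaching 2-fold, with log2 ratios from -0.60 to -0.21, and Ctnnb1 ran from 0.18 to 0.60.

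**Figure D5:**
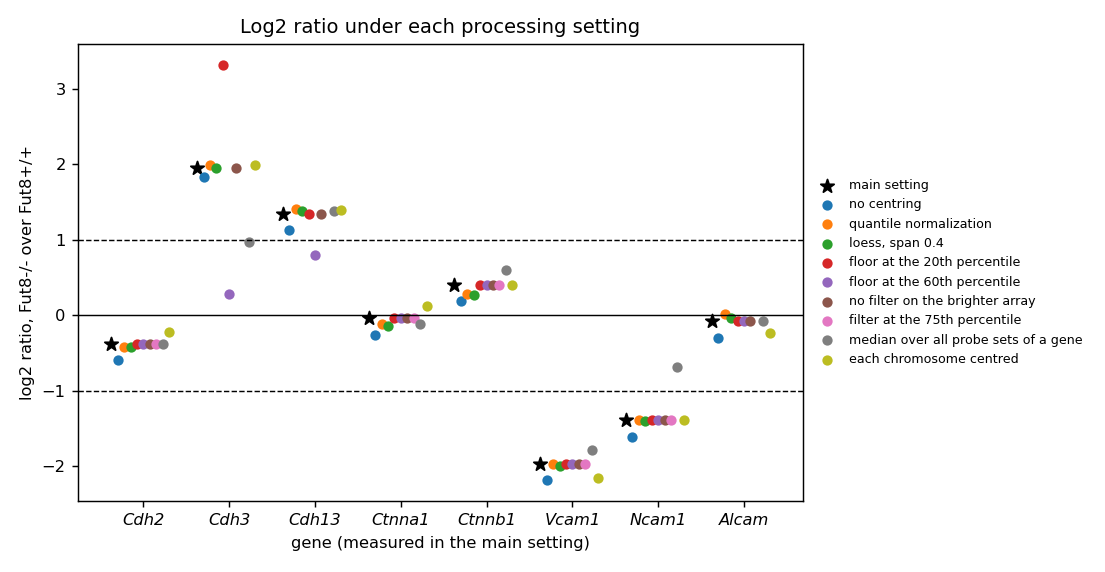
Centred log2 ratio of Fut8-/- over Fut8+/+ of the 8 measured adhesion genes under the main setting (star) and each alternative (points), with dashed lines at 2-fold. Vcam1 lies between -2.18 and -1.78 throughout, whereas Cdh3 ranges from 0.28 to 3.32 with the height of the floor.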

How the data were processed

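The authors' deposited values were signal intensity on a linear scale (1 per array for each probe set), made with GCOS per the submitters' processing notes; no source used here gives its version, signal algorithm, scaling target or detection calls. The column medians were 20.5 (Fut8+/+) and 16.9 (Fut8-/-), so scale and centring beyond linearity stay unknown. Log2 ratios were centred on the median (-0.22) of 23885 probe sets that passed the 40th percentile on each array, then floored at the pooled 40th percentile (12.3). Genes whose brighter array passed the 60th percentile (39.1) were called measured, and counted at 2-fold. The platform annotation gave 34945 probe sets 1 symbol, 932 several and 9160 none; 64 were controls. Gene identifiers matched RefSeq (GRCm38.p6) for 34741, changing 0 symbols. Of 278 genes in 10 related and 7 cell type lists, 9 are not analysed here. Named genes were all 10 members, Fut8, Cdh1, Cdh5, Ctnnd1, Jup, Itga4, Itgb1, St8sia2 and St8sia4, and up to 4 genes per list with the largest ratio; any others were named after their values were seen. Members and lists were chosen with earlier results of these data known. No test was made, since each genotype has 1 array, and the number of arrays limits the precision. Log2 signals of the arrays correlated with a Pearson r of 0.955 over 23889 probe sets past the floor, a description across probe sets, which are not replicates. Spiked hybridisation controls (18 probe sets) lay at a log2 ratio of -0.06 before centring and 0.16 after it. The steps were run on simulated data with differences planted in genes whose mean signal was above the measured limit. That run does not cover genes near the floor or variation between cultures. Analyses used Python 3.11.15 with pandas 2.3.3 and statsmodels 0.14.6 (loess, span 0.4).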

Additional observations from a re-analysis of the deposited data

How the results depend on the processing

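Alternatives were no centring, quantile normalization, loess, floors at the 20th and 60th percentiles, no filter, a filter at the 75th percentile, the median over all probe sets of a gene, and centring each chromosome; folds of 1.5 and 3 were tried for the counts. The count of 2 adhesion genes at least 2-fold higher became 0 with the floor at the 60th percentile, which lifts both dim Fut8+/+ signals, and 0 when the filter was set at the 75th percentile, which leaves 5 genes measured. With the median over probe sets 1 was higher and 1 lower, in place of 2 and 2, and at 3-fold also 1 and 1. Other counts, and the median of the measured members under all 9 alternatives, stayed within 1.5 times or within the spread among probe sets. Of 270 values for the related lists under alternatives, 236 stayed so and 34 moved. The cause of other moves was not tested. No paired analysis was possible because each genotype has 1 array. No replicate could be left out for the same reason. Signals near the floor limit what can be said of Cdh3, Cdh11, Cdh13, Icam1 and Alcam.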
